A study of Mus musculus with 30 samples.

Results

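The genes described here are 36 genes of skeletal muscle fibres, followed through 30 libraries of total RNA from mouse abdominal aorta. They were taken as a list of names, chosen with earlier results of these data known. Their values were summed per gene over the transcripts listed for every group. Of the 36, 28 had a value in all groups, among 14379 genes with such a value in all. The list holds 14 genes of fast fibres, 5 of slow fibres and 17 that both kinds of fibre use. Wild-type C57BL/6 mice made up 6 groups with 5 libraries each, all of them sampled at 28 days. Control mice received saline, and AngII mice angiotensin II at 500 ng/kg/min, the hormone peptide by which the renin system narrows vessels. In the other groups the same infusion was joined by ethoxysanguinarine (AngII+ETH), baicalin (AngII+BAI) or gastrodin (AngII+GAS) at 5 mg/kg/d each, which are plant compounds, or by valsartan (AngII+VAL) at 10.4 mg/kg/d. Valsartan blocks the type 1 receptor of angiotensin II. The labels do not say whether each library came from a separate animal, so p-values measure the spread between these libraries.

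A skeletal muscle fibre contracts when thick filaments of myosin pull on thin filaments of actin. Calcium released from the sarcoplasmic reticulum starts this by binding troponin C on the thin filament. Fast and slow fibres use different genes for the same parts, such as Tnnc2 in fast fibres and Tnnc1 in slow fibres, and the heart shares several of the slow forms. The wall of the aorta is built of smooth muscle, which uses other actin and myosin genes, and holds no skeletal fibres of its own. For that reason the smooth muscle genes were read beside the list: all 10 of theirs had values, and their summed level was 1510 to 13500 FPKM (fragments per kilobase of transcript, adjusted for the size of the library).

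The promoters of 4 members are printed because their genes carry the patterns below. Acta1, the actin of skeletal fibres, had the highest levels of the list, Ckm encodes the muscle creatine kinase, and Tnnc2 and Tnnc1 are the fast and the slow troponin C. Each window runs from 250 bases before the gene's start to 50 after it, from RefSeq on GRCm38.p6. Capitals mark matches on either strand to the E-box CANNTG, which binds the myogenic factors, to the CArG box, which binds serum response factor, to the MEF2 motif or to TATAAA. Matches of different motifs may overlap. The windows are chr8:123894726-123895025 (minus strand) for Acta1, chr7:19410844-19411143 (plus) for Ckm, chr2:164779685-164779984 (minus) for Tnnc2 and chr14:31208062-31208361 (plus) for Tnnc1. The windows follow RefSeq's start sites. GENCODE M21, on the same build, places these genes at chr8:123891769-123894751, chr7:19404776-19422841, chr2:164777161-164779967 and chr14:31208312-31211729, so that the window of Ckm lies wholly and that of Tnnc2 mostly inside the GENCODE gene, whose outermost start lies farther upstream. The main transcripts listed in these data began 24 (Acta1), 69 (Ckm), 7 (Tnnc2) and 0 (Tnnc1) bases from RefSeq's start.
Acta1: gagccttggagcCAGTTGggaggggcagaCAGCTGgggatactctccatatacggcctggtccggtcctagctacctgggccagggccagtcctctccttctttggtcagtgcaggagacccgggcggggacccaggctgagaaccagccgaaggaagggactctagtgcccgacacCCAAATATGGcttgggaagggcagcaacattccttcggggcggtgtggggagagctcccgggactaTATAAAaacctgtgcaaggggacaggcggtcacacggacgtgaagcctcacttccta
Ckm: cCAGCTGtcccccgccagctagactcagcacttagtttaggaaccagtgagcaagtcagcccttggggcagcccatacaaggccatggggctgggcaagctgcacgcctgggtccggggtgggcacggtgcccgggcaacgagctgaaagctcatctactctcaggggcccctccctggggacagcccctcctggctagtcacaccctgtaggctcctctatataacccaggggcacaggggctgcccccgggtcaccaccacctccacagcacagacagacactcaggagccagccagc
Tnnc2: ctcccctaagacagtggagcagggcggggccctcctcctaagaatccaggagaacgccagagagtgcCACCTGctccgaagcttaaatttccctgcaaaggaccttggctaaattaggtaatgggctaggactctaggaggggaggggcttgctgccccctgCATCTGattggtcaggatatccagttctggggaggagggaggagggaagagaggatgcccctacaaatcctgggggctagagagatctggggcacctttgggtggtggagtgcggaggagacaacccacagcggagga
Tnnc1: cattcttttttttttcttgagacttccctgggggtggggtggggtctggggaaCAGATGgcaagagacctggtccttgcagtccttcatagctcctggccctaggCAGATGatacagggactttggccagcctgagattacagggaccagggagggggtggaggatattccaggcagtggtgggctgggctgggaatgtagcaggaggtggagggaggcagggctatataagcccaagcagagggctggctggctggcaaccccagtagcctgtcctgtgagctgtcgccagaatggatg
RefSeq's table held windows for 28 of the 36 members, not all of them among the 28 with values. An E-box stood in 24 of these (85.7%), and in 72.3% of 32851 windows of all genes. A CArG box stood in 3 (10.7%, Acta1, Myh4 and Asb2) against 1.63% of all windows. The MEF2 motif stood in 2 (7.14%, Ttn and Xirp2) against 0.557%, and TATAAA in 7 (25.0%) against 13.6%. Of the 4 windows printed, only that of Acta1 held a CArG box and TATAAA, and all 4 held an E-box.

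Depth was similar across libraries, at 70.2 to 80.6 M reads (megareads), so that 3 reads in a transcript of 2 kb stood for 0.0186 to 0.0214 FPKM. At that depth the low libraries still held reads of the main members: the smallest number behind Tnnc2 was 32 and behind Acta1 228. A value of 0 is given here as listed at 0. The members together took 0.0144% (AngII 4) to 1.15% (Control 2) of the FPKM of all listed transcripts. The libraries fell unevenly within groups. In 9 libraries, at least 20 of the 28 members were among their own 10 highest values: Control 1 and 2, AngII+ETH 1, AngII+BAI 3 and all 5 of AngII+VAL. In AngII 2 this held for 13 members, and in each of the other 20 libraries for 10 or fewer. AngII 2 also held heart muscle genes, which are described with the slow fibre genes.

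**Figure D1:**
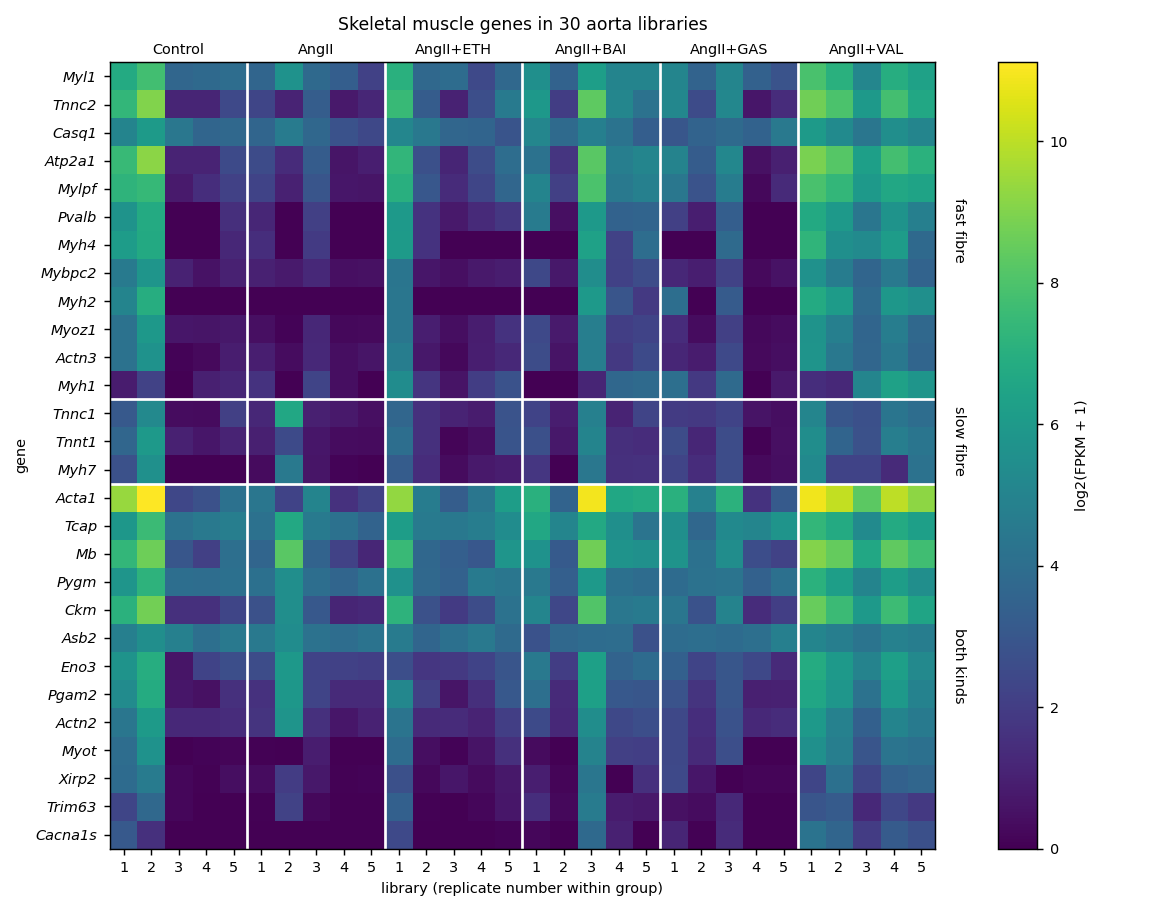
Level of each of the 28 genes with values in all groups (rows, by fibre kind and mean level) in each of the 30 libraries (columns, 5 a group), in log2(FPKM + 1). Control 1 and 2, AngII+ETH 1, AngII+BAI 3 and the 5 AngII+VAL libraries are high for most rows, and AngII 2 is high for a part of them only.

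The remaining 8 members had no transcript common to all lists. Tnnt3 and Tnni2, the fast troponins T and I, were listed for all 6 groups but through different transcripts. Mybpc1, the slow myosin-binding protein C, was listed for every group except AngII+ETH. Ttn (titin) and Ampd1 (the AMP deaminase of muscle) were listed for Control and AngII only, and Neb (nebulin) for AngII+ETH and AngII+VAL only. Tnni1, the slow troponin I, and Ryr1, the calcium release channel, had no listed transcript. Every transcript listed for a compound group had a mean of at least 0.5 FPKM in that group or in AngII, and every transcript on the common list of Control and AngII in either of these, so that an unlisted gene was not measured here as absent.

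Of the thin filament genes, Acta1 had the widest absolute range, from 2.01 to 2220 FPKM. In Control it was at 683, 2220, 4.12, 5.78 and 16.6 FPKM, and in AngII at 19.3, 3.73, 31.4, 2.01 and 3.58. In AngII+ETH it was at 631, 24.7, 8.78, 19.7 and 71.3 FPKM, in AngII+BAI at 130, 10.5, 1917, 98.0 and 111, and in AngII+GAS at 131, 28.3, 141, 2.07 and 7.78. In AngII+VAL it was at 1903, 1086, 316, 1034 and 607 FPKM. All AngII+VAL libraries were above all AngII and all AngII+GAS libraries, while Control, AngII+ETH and AngII+BAI each held 1 or 2 libraries as high as those of AngII+VAL. In bulk samples such as these, fewer muscle fibres and less RNA per fibre cannot be told apart.

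The fast troponin C gene Tnnc2 followed the same libraries. It was at 164, 521, 1.19, 1.23 and 4.43 FPKM in Control and at 4.04, 1.13, 8.85, 0.694 and 1.26 in AngII. In AngII+VAL it was at 412, 250, 62.5, 222 and 101 FPKM. Over the other groups it spanned 1.10 to 180 FPKM in AngII+ETH, 3.03 to 324 in AngII+BAI and 0.586 to 34.8 in AngII+GAS. Its ratio to Acta1 stayed between 0.125 and 0.465 in all 30 libraries, although Acta1 itself varied far more.

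The slow troponin C gene Tnnc1 stood farthest above its fast counterpart in AngII 2. It was at 7.51, 37.1, 0.307, 0.250 and 3.25 FPKM in Control and at 1.34, 102, 0.987, 0.674 and 0.390 in AngII. In AngII+VAL it was at 32.0, 6.96, 5.48, 19.2 and 14.6 FPKM. The ratio of Tnnc1 to Tnnc2 was 90.2 in AngII 2 and 0.0279 to 1.05 in the other 29 libraries, with 0.0279 to 0.144 in the 9 libraries high in most members. Tnnc1 thus exceeded Tnnc2 in AngII 2 and, narrowly, in AngII+ETH 3.

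The troponin T pair can be compared only in part. The slow gene Tnnt1 was at 11.6, 62.9, 1.01, 0.583 and 1.14 FPKM in Control, at 0.968, 4.64, 0.573, 0.278 and 0.265 in AngII, and at 43.1, 10.8, 5.86, 26.0 and 18.7 in AngII+VAL. Its AngII+VAL libraries lay above all AngII libraries. The fast gene Tnnt3, summed over each group's own list, was at 12.4, 27.5, 0.185, 0.0546 and 0.251 FPKM in Control and at 13.1, 185, 37.2, 4.69 and 137 in AngII+VAL. These sums rest on different transcripts, and Tnnt3 was listed at 0 in AngII+BAI 3, where Tnnc2 was at 324 FPKM, so no test was made of them. The same holds for the fast troponin I gene Tnni2, at 0 to 29.9 FPKM in Control, 0 to 0.0343 in AngII and 1.62 to 179 in AngII+VAL, while its slow partner Tnni1 was not listed. Nebulin, the ruler of the thin filament, was at 0.0612 to 1.37 FPKM in AngII+ETH and 0.223 to 3.89 in AngII+VAL.

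**Figure D2:**
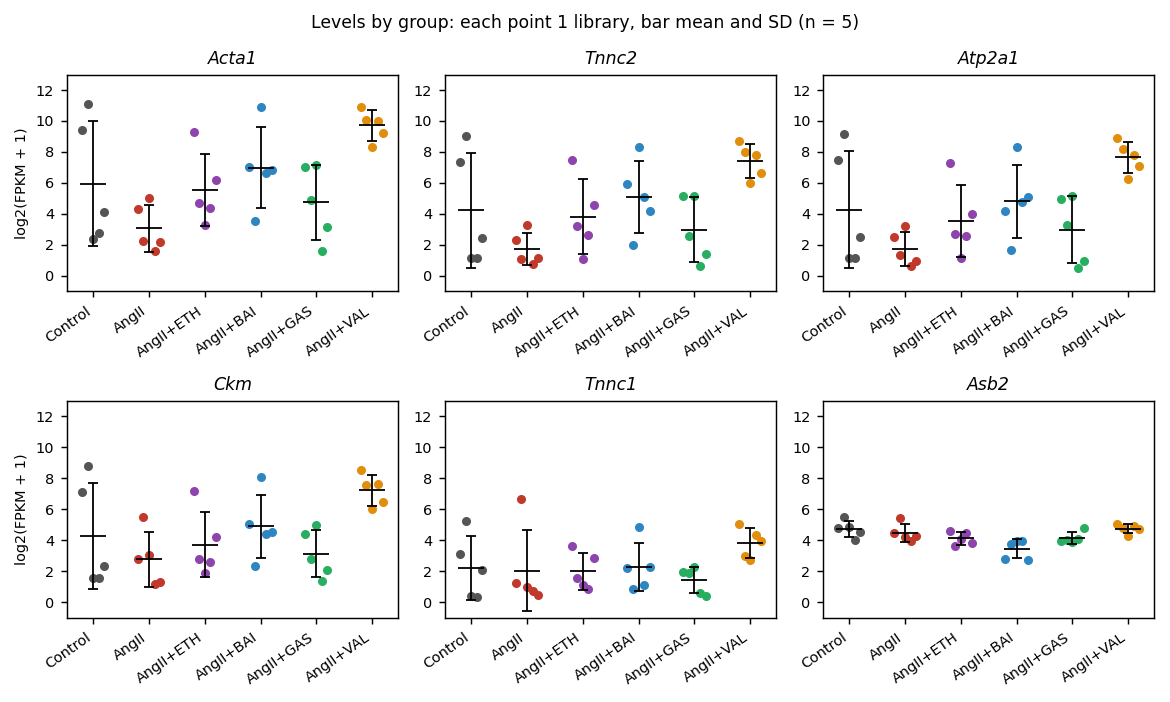
Level of 6 members by group in log2(FPKM + 1), each point 1 library, with the mean and SD (n = 5). Acta1, Tnnc2, Atp2a1 and Ckm lie high in all 5 AngII+VAL libraries. In Control, AngII+ETH and AngII+BAI only a minority of libraries reach those levels. Tnnc1 has its highest point in AngII 2, and Asb2 keeps to 5.70 to 43.8 FPKM.

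The thick filament genes gave the myosin motors. Mylpf, the fast regulatory light chain, was at 147, 173, 0.749, 1.76 and 3.42 FPKM in Control, at 3.71, 1.03, 6.56, 0.584 and 0.567 in AngII, and at 244, 162, 62.8, 101 and 86.7 in AngII+VAL. Myl1, the essential light chain of fast fibres, spanned less, from 3.49 FPKM (AngII 5) to 244 (AngII+VAL 1), and was at 50.1 in AngII 2. Mybpc2, the fast myosin-binding protein C, was at 0.217 to 53.9 FPKM. Its slow relative Mybpc1 was at 0 in 4 Control libraries and 18.4 in Control 2, and at 0.196 to 9.09 in AngII+VAL. Mylpf and Mybpc2 did not overlap between AngII+VAL and AngII, and Myl1 did, through AngII 2.

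The 4 myosin heavy chain genes Myh4, Myh1 and Myh2 (fast types 2B, 2X and 2A) and Myh7 (slow) were compared in full. The fast genes are neighbours on chromosome 11, Myh2 at chr11:67171027-67197517, Myh1 at chr11:67200052-67224575 and Myh4 at chr11:67238029-67260446, and Myh7 lies at chr14:54970684-54994626. Myh4 was at 70.0, 108, 0, 0 and 1.36 FPKM in Control, at 1.75, 0, 2.75, 0 and 0 in AngII, and at 152, 45.3, 38.7, 68.8 and 13.03 in AngII+VAL. Over its shared transcript Myh2 was listed at 0 in 17 libraries, among them all 5 of AngII. It was at 111, 68.0, 13.2, 57.9 and 45.4 FPKM in AngII+VAL. Over own lists several of these libraries were above 0, with Myh2 at 0.273 FPKM in AngII 1, 0.0685 in AngII 2 and 2.63 in AngII+BAI 1. Myh7 was at 5.76, 46.4, 0, 0 and 0 FPKM in Control, at 0.256, 21.8, 0.548, 0.0771 and 0 in AngII, and at 38.2, 3.71, 3.70, 1.47 and 17.1 in AngII+VAL. The 2 fast genes separated AngII+VAL from AngII without overlap, whereas Myh7 overlapped through AngII 2.

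Myh1 needs each group's own list. In some libraries, such as Control 1 and 2, AngII+BAI 3 and AngII+VAL 1 and 2, most of its reads were given to transcripts not listed for AngII+ETH and AngII+GAS. In others of the same groups, such as AngII+VAL 3 to 5, nearly all were given to the shared transcript (32.0, 80.7 and 55.3 FPKM). Over the shared transcript alone Control 2 had 3.58 FPKM of Myh1, and over its own list 372. Over own lists Myh1 was at 89.5, 372, 0.519, 1.15 and 1.33 FPKM in Control, at 2.14, 0.293, 3.96, 0.501 and 0.617 in AngII, and at 169, 131, 32.7, 81.4 and 55.5 in AngII+VAL. The tested values of Myh1 below use the shared transcript and so understate it in Control, AngII+BAI and AngII+VAL. Myh2 and Myh4 are tested over their shared transcripts as well. Myh4 in AngII+BAI 1 was at 0.00727 FPKM over that transcript and at 11.6 over its own list.

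Shares among the 4 heavy chains were read where they summed to at least 50 FPKM over own lists, which held in 9 libraries with sums of 90.2 to 652 FPKM. In these, Myh1 made up 30.7% to 57.0%, Myh4 9.86% to 48.2% and Myh2 14.7% to 34.7% of the sum. The slow gene Myh7 made up 0.772% (AngII+VAL 4) to 13.7% (AngII+VAL 5). In AngII 2, whose sum was 22.2 FPKM, Myh7 made up 98.4%. Fast heavy chains thus made up most of the sum in each of the 9 libraries, whichever group they came from, and the slow one in AngII 2.

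**Figure D3:**
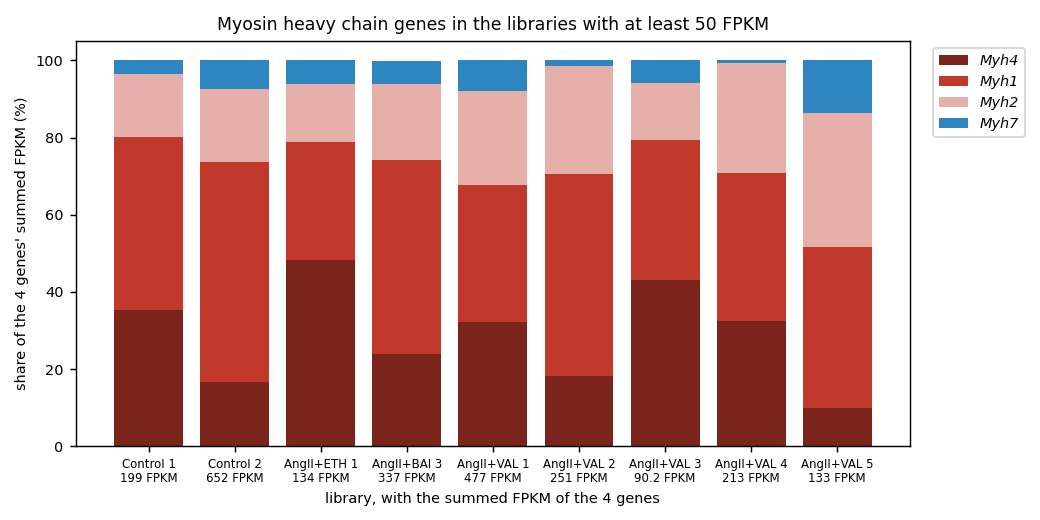
Share of each of 4 myosin heavy chain genes in their summed FPKM (percent, own transcript lists), for the 9 libraries where the sum was at least 50 FPKM, with the sum under each bar. The 3 fast genes (Myh4, Myh1, Myh2) fill most of every bar, and Myh7 takes 0.772% to 13.7%.

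The Z-disc anchors the thin filaments, and its members split between narrow and wide ranges. Actn3, the alpha-actinin of fast fibres, was at 17.2, 49.3, 0.0679, 0.210 and 0.850 FPKM in Control, at 0.305 to 1.46 in AngII and at 11.4 to 53.2 in AngII+VAL. Actn2, the alpha-actinin that the heart also uses, was at 0.573 to 53.6 FPKM in AngII, with the top value in AngII 2, and at 9.60 to 61.0 in AngII+VAL. Actn3 in that library was at 0.305 FPKM. Myoz1 (a calcineurin-binding protein of fast fibres) and Myot (myotilin) behaved as Actn3 did: Myoz1 was at 0.0692 to 1.33 FPKM in AngII and 11.2 to 50.9 in AngII+VAL, and Myot at 0 to 0.847 and 6.68 to 46.9. Xirp2, an actin-binding protein of muscle, was at 0.0416 to 2.98 FPKM in AngII and 4.04 to 16.2 in AngII+VAL. Tcap, the cap of titin, was at no less than 10.5 FPKM in any library and reached 189 in Control 2. Titin itself was at 0 to 2.97 FPKM in Control and 0 to 0.0671 in AngII.

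Of the calcium handling genes, Atp2a1, the calcium pump of the fast sarcoplasmic reticulum, was at 179, 578, 1.19, 1.18 and 4.61 FPKM in Control and at 4.78, 1.56, 8.38, 0.559 and 0.922 in AngII. In AngII+VAL it was at 475, 290, 75.7, 221 and 136 FPKM. Pvalb, the calcium buffer parvalbumin, was at 0 to 3.31 FPKM in AngII and 19.9 to 108 in AngII+VAL. Cacna1s, the voltage sensor of excitation-contraction coupling, was at 0 to 0.0209 FPKM in AngII and 2.89 to 17.9 in AngII+VAL. These 3 genes did not overlap between the groups. Casq1, the calcium store protein calsequestrin, was present in every library, from 4.39 FPKM (AngII 5) to 66.0 (Control 2), and its groups overlapped.

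Of the genes of energy supply, Ckm, Mb, Eno3, Pygm and Pgam2 each had their highest AngII value in AngII 2. Ckm was at 137, 436, 1.88, 1.89 and 4.0 FPKM in Control, at 5.79, 44.7, 7.28, 1.23 and 1.43 in AngII, and at 364, 188, 63.4, 195 and 87.7 in AngII+VAL. Mb (myoglobin, the oxygen store of red fibres and heart) was at 165, 399, 6.95, 3.31 and 15.9 FPKM in Control and at 11.3, 309, 10.5, 3.59 and 1.32 in AngII. In AngII+VAL it was at 537, 363, 100.4, 339 and 207 FPKM. Ckm still separated AngII+VAL from AngII, and Mb did not. The ratio of Ckm to Acta1 was 12 in AngII 2 and 0.140 to 0.790 in the other 29 libraries, and that of Mb to Acta1 was 82.9 against 0.180 to 2.47. Eno3 (muscle enolase) and Pgam2 (muscle phosphoglycerate mutase), both of glycolysis, reached 59.4 and 58.4 FPKM in AngII 2 and were at 3.21 to 5.06 and 1.51 to 3.88 in the other AngII libraries. Eno3 was not high in AngII+ETH 1, at 5.38 FPKM there and 6.61 in AngII+ETH 5. Pygm, the glycogen phosphorylase of muscle, was at 9.44 to 146 FPKM. Ampd1 was at 10.2 FPKM in Control 2 and at 0 to 0.0227 in the other Control and the AngII libraries.

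The pair of ubiquitin ligase genes parted. Trim63 (MuRF1, which marks sarcomere proteins for breakdown) was at 4.07, 12.5, 0.152, 0 and 0.0282 FPKM in Control, at 0.0135 to 3.60 in AngII and at 1.40 to 8.01 in AngII+VAL. Asb2, a substrate receptor of a cullin ligase, was at 5.70 to 43.8 FPKM over all libraries and had the smallest range of the list, its highest value being 2.48 times its median. The correlation of Asb2 with the mean of the fast members was 0.283 over the 30 libraries. Of the 28 members, 15 had a correlation of at least 0.9 with that mean, and 6 were under 0.8: Myh1 (over its shared transcript), Casq1, Myh7, Tnnc1, Tcap and Asb2. The points share their library and its scaling, and fast members enter the mean themselves.

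AngII 2 stood apart in slow fibre and heart genes. The mean of the 3 slow members was 4.56 in log2(FPKM + 1) there and 0.271 to 0.844 in the other AngII libraries. The mean of the 12 fast members was 1.25 there and 0.734 to 2.26 over AngII. Within AngII, 15 members were highest in AngII 2, with all 3 slow genes but only 2 of the fast ones (Myl1 and Casq1), and 11 were highest in AngII 3, with 9 fast genes. The 8 heart muscle genes with values, of 10 looked for, summed to 1590 FPKM in AngII 2 and to 3.83 to 38.0 in the other 29 libraries. Among them Actc1, the cardiac actin, was at 503 FPKM, Myl4 and Myl7, the atrial myosin light chains, at 418 and 387, and Myh6, the alpha myosin heavy chain, at 177. Elsewhere Myl7 was at 0 to 0.586 FPKM and Myl4 at 0.0484 to 1.42. The part of heart muscle RNA in the AngII values was not tested, and values without AngII 2 are given below beside the differences and medians that it moves by over 1.5 times or turns.

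**Figure D4:**
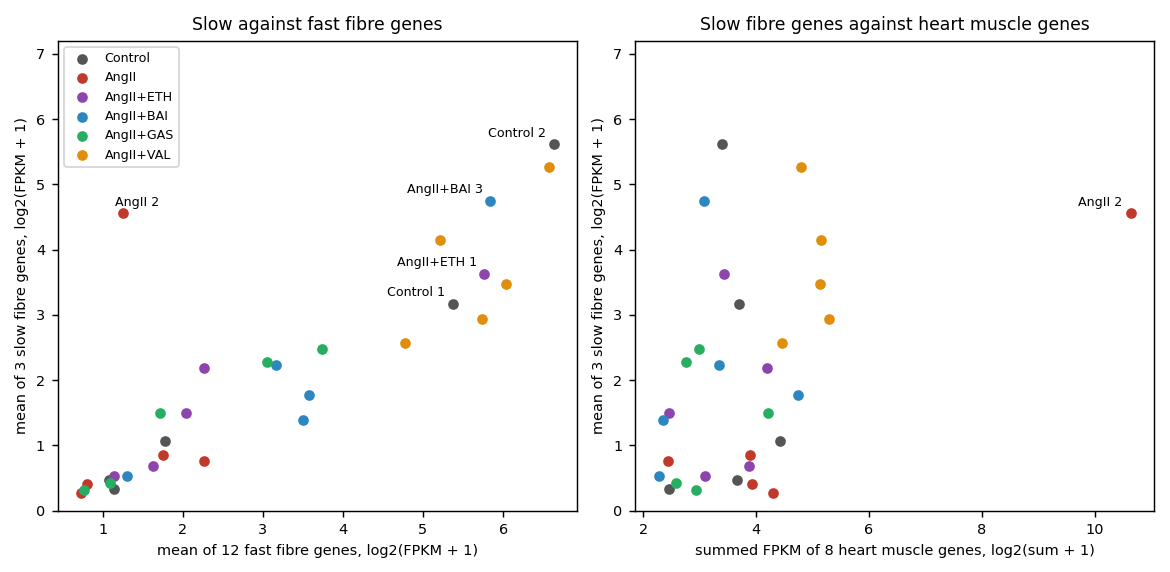
Left, the mean of the 3 slow fibre genes against that of the 12 fast fibre genes in each library, and right, the same slow mean against the summed level of 8 heart muscle genes, all on log2 scales with 1 FPKM added, coloured by group. AngII 2 has a slow mean of 4.56 at a fast mean of 1.25 and is the library with the highest heart muscle sum (1590 FPKM).

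Valsartan with angiotensin II was compared with angiotensin II alone. All 28 members had a higher fitted mean in AngII+VAL, by 0.283 (Asb2) to 6.63 (Acta1) in log2(FPKM + 1), with a median of 3.17, where all 13223 genes tested had a median of -0.123. None passed the test: limma called 0 of 28 after Benjamini-Hochberg adjustment over all genes, as it called 0% of all genes, and the lowest adjusted p was 0.115. At an unadjusted p under 0.05, 25 of the 28 members passed, and 10.8% of all genes. Every AngII+VAL library lay above every AngII library in 15 of 28 members, which held for 0.537% of all genes, or 71 genes. These were 9 of the 12 fast members, 1 of the 3 slow (Tnnt1) and 5 of the 13 shared by both kinds (Acta1, Ckm, Cacna1s, Myot and Xirp2). Of the 71 genes, the members thus made up 15. Since the list was chosen with earlier results of these data known, these shares are a description.

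The member with the largest difference was Acta1, at 989 ± 601 FPKM (SD, n = 5) in AngII+VAL and 12 ± 12.9 in AngII. Its difference of 6.63 (SE 1.51) on the log2 scale had an adjusted p of 0.115 by limma. Atp2a1 differed by 5.91 (SE 1.40), Tnnc2 by 5.69 (SE 1.38) and Mylpf by 5.38 (SE 1.23), with adjusted p of 0.115, 0.126 and 0.115 by limma. The slow genes differed by 3.21 (SE 0.925) for Tnnt1, 1.93 (SE 1.03) for Myh7 and 1.78 (SE 1.00) for Tnnc1, and without AngII 2 by 3.59, 2.78 and 2.95. Among the fast members Casq1 (1.82) and Myl1 (2.96) also differed by less than Tnnt1. The value of Myh1 (3.13) holds for its shared transcript only and is not ranked here. That transcript was at 1.78 and 1.44 FPKM in AngII+VAL 1 and 2, where own lists gave 169 and 131. For Tnnc1 the mean FPKM went the other way, at 15.6 ± 10.7 in AngII+VAL and 21.03 ± 45.1 in AngII, because AngII 2 held 102 FPKM. Without AngII 2, left out after its heart genes were seen, all AngII+VAL libraries lay above the remaining AngII libraries in 26 of 28 members, and in 1.53% of all genes. The exceptions were Asb2 and, over its shared transcript, Myh1. Over own lists Myh1 did not overlap, at 32.7 to 169 FPKM in AngII+VAL and 0.293 to 3.96 in all AngII libraries. Fitted with the 2 groups alone, limma called 12 of the 28 members among 19 genes in all.

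**Figure D5:**
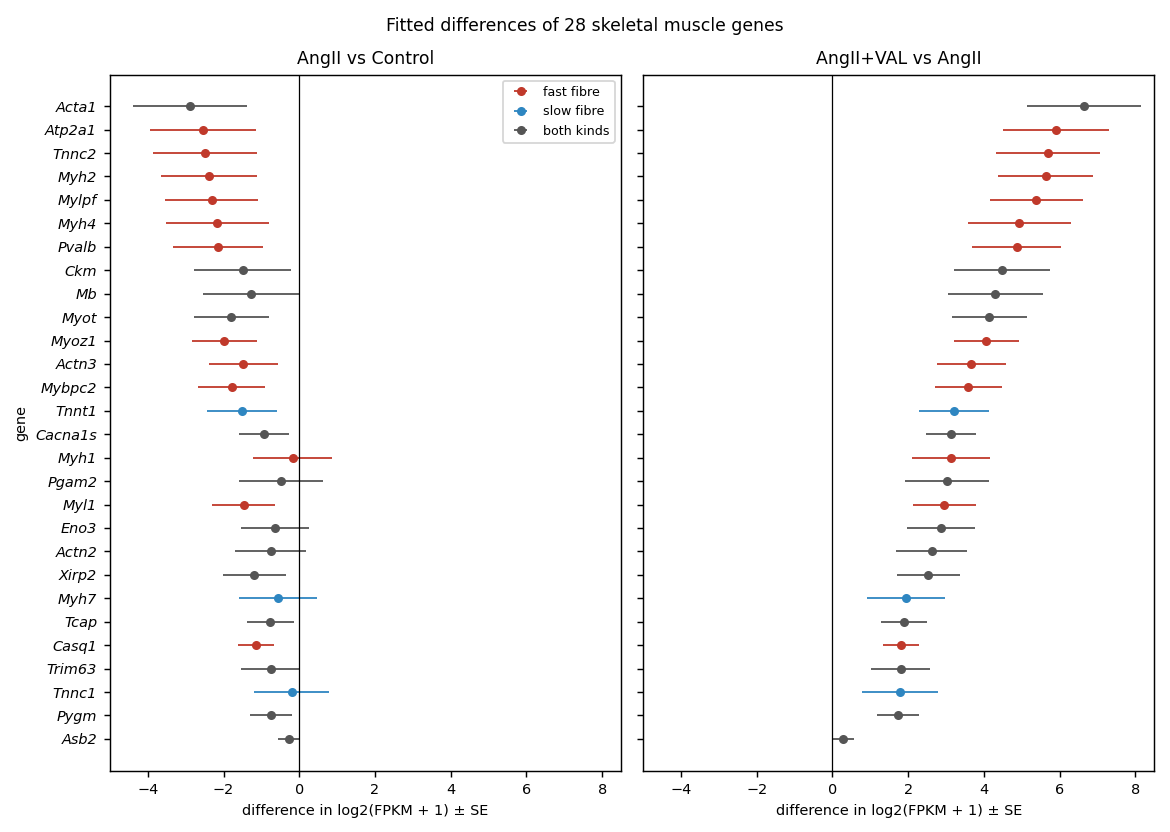
Fitted difference in log2(FPKM + 1) with its SE for each of the 28 genes, for AngII against Control (left) and AngII+VAL against AngII (right), coloured by fibre kind and ordered by the right panel. Points lie below 0 on the left and above 0 on the right, from 0.283 (Asb2) to 6.63 (Acta1), and no gene passed an adjusted p under 0.05 in either comparison.

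Kidney genes were high in the same group. Kap, a gene of kidney tubules, was at 65.6 to 92.1 FPKM in AngII+VAL and at 66.7 in AngII+BAI 5, and at 0 to 29.0 elsewhere. The 3 of 8 kidney genes with values summed to 70.3 to 100 FPKM in AngII+VAL, 0 to 24.9 in Control, 0.288 to 33.5 in AngII, 0.496 to 29.6 in AngII+ETH, 0.0932 to 73.2 in AngII+BAI and 0 to 29.4 in AngII+GAS. The library highest in skeletal genes outside AngII+VAL, Control 2, had Kap at 14.9 FPKM, and AngII+BAI 3 at 0. Actc1 was at 16.3 to 25.7 FPKM in AngII+VAL and 1.10 to 13.5 in the libraries other than AngII 2 and AngII+BAI 5 (21.2), while the atrial gene Myl7 was at 0 to 0.291 in AngII+VAL. Haemoglobin and red cell genes (6 of 6 with values) summed to 8320 to 28300 FPKM in AngII+VAL and 2020 to 10400 in AngII. Smooth muscle genes summed to 6470 to 11000 FPKM in AngII+VAL and 6990 to 8770 in AngII. The part of other tissue in the difference was not tested.

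Angiotensin II was compared with saline. All 28 members had a lower fitted mean in AngII than in Control, by 0.175 (Myh1, over its shared transcript) to 2.88 (Acta1) on the log2 scale. The median was -1.37 against 0.11 for all genes. limma called 0 of 28 members and 0% of all genes, with a lowest adjusted p of 0.353 (Casq1), and 2 members (Casq1 and Myoz1) passed an unadjusted p under 0.05, against 11.2% of all genes. The groups overlapped in every member, while 0.537% of all genes lay wholly lower in AngII. In 26 of 28 members the highest pair of Control libraries was Control 1 and 2. Without these, the median of the members was 0.157, the difference of Tnnc2 was 0.155 and that of Mb 0.708, all in the opposite direction, while Acta1 was at -0.00751 and Casq1 at -0.5. Of the members, 21 were then higher in AngII and 6 lower. With AngII 2 left out as well, chosen after seeing the data, the median was 0.0477, with 16 higher and 11 lower, Tnnc2 was at 0.316, Acta1 at 0.201, Casq1 at -0.794 and Mb at -0.42. Acta1 was at 586 ± 959 FPKM in Control (SD, n = 5), a spread larger than its mean. Leaving out Control 2 alone gave a median of -0.634 and a difference of -1.59 for Acta1, leaving out Control 1 alone a median of -0.887, and leaving out AngII 2 a median of -1.7. Brown fat genes (11 of 11 with values) summed to 1600 to 4520 FPKM in Control and 638 to 3360 in AngII, fibroblast genes (8 of 8) to 1090 to 1580 and 1830 to 5640, and genes of sympathetic neurons (14 of 14) to 18.2 to 87.6 and 14.2 to 1040. The part of these in the difference was not tested.

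The plant compounds were compared with angiotensin II alone, in comparisons that share the AngII libraries with each other and with valsartan. With baicalin the median difference of the members was 1.32, and limma called 0 of 28 members and 0.333% of all genes. At an unadjusted p under 0.05, 8 members passed against 14.6% of all genes, among them Asb2, which was lower. With ethoxysanguinarine the median was 0.726, limma called 0 of 28 members and 0% of all genes, and 0 members passed an unadjusted p under 0.05 against 3.41% of all genes. With gastrodin the median was 0.286, limma called 0 of 28 members and 0.0151% of all genes, and 0 members passed unadjusted against 13.7% of all genes. Single libraries moved the medians of ethoxysanguinarine and gastrodin by over 1.5 times. Without AngII+ETH 1 that of ethoxysanguinarine was 0.0302. That of gastrodin was 0.0522 without AngII+GAS 3, 0.518 without AngII+GAS 4, 0.54 without AngII+GAS 5, and 0.596, 0.162 and 0.0789 without AngII 2, 4 and 5. For Acta1 the differences were 3.90 (SE 1.51) with baicalin, 2.49 (SE 1.51) with ethoxysanguinarine and 1.69 (SE 1.51) with gastrodin. The levels behind them were 453 ± 820, 151 ± 269 and 62.0 ± 68.3 FPKM (SD, n = 5 each), so that the spread within each group exceeded its mean. The difference of Acta1 was 1.55 with ethoxysanguinarine without AngII+ETH 1, and 1.12 and 1.09 with gastrodin without AngII+GAS 1 and 3.

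Against Control, the compound groups share the uneven Control libraries. With valsartan all 28 members had a higher fitted mean, with a median of 2.19 against -0.00557 for all genes, and 15 passed an unadjusted p under 0.05 against 3.84% of all genes. limma called 0 of 28 members and 0% of all genes, with a lowest adjusted p of 0.855, and the groups overlapped in every member, since Control 1 or 2 reached into the range of AngII+VAL, while 0.461% of all genes lay wholly higher in AngII+VAL. Without Control 1 and 2 the median was 3.67. The medians were 0.13 for AngII+BAI, -0.62 for AngII+ETH and -1.09 for AngII+GAS, and became 1.80, 1.01 and 0.595 without Control 1 and 2. Leaving out single libraries gave -0.445 (without AngII+BAI 3) to 0.907 (without Control 2) for AngII+BAI, where Control 3, 4 or 5 left out also gave a value below 0 and leaving out any of the 10 libraries moved the median by over 1.5 times. For AngII+ETH it gave -1.33 (without AngII+ETH 1) to 0.214 (without Control 2), with changes of over 1.5 times also without Control 1, 3 or 4 or AngII+ETH 3 or 4. For AngII+GAS it gave -1.55 (without Control 4) to -0.22 (without Control 2), with changes of over 1.5 times also without Control 1 or AngII+GAS 4. limma called 0 of 28 members with ethoxysanguinarine (0% of all genes) and with gastrodin (0.00756%), where 1 and 0 members passed an unadjusted p under 0.05 against 5.18% and 3.70% of all genes. A test over all 6 groups together called 0 of 28 members and 0% of all genes, with 23 members at an unadjusted p under 0.05 against 15.8% of all genes.

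The only member called in any of the comparisons tested was Asb2, which was lower in AngII+BAI than in Control. It was at 27.04, 43.8, 27.8, 15.5 and 21.8 FPKM in Control and at 5.90, 12.7, 14.4, 14.6 and 5.70 in AngII+BAI, without overlap, as for 0.991% of all genes in that direction. The difference was -1.30 (SE 0.293) with an adjusted p of 0.039 by limma. In this comparison limma called 1.44% of all genes, and 0.333% as lower, so that 1 call among 28 members says nothing of the list. Against AngII, where Asb2 was at 21.5, 41.5, 17.3, 14.8 and 17.99 FPKM, the difference was -1.02 (SE 0.293, adjusted p of 0.121 by limma), again without overlap, as for 1.4% of all genes in that direction. The call did not hold when Control 1, 2 or 3 or AngII+BAI 1, 3 or 5 was left out, with adjusted p from 0.0513 to 0.0979 by limma. AngII+BAI 3 and 5 were also the libraries lowest in smooth muscle genes, at 1510 and 2970 FPKM in sum against 3920 to 13500 in the others. Without both, the difference of Asb2 was -1.23 with an adjusted p of 0.104 by limma, and the part of the smooth muscle content was not tested.

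Other genes of skeletal muscle, a list of 49 beside the members, had smaller median differences. How far other cell kinds set their levels was not tested. Of the 40 tested, 36 had a higher fitted mean in AngII+VAL than in AngII, with a median of 0.841, and 33 a lower one in AngII than in Control, with a median of -0.337. limma called 0 of the 40 in both, and 18 and 2 of them passed an unadjusted p under 0.05, against 10.8% and 11.2% of all genes. The 4 with the highest mean level were Gpd1, Hspb7, Sh3bgr and Jph2, all of them high throughout: Gpd1 was at 494 to 1740 FPKM in AngII+VAL and 535 to 1410 in AngII, and Jph2 at 39.6 to 70.0 and 32.3 to 75.2. Of 7 other slow fibre genes, 6 were tested, and all had a higher fitted mean in AngII+VAL than in AngII, with a median of 1.47, 0 called by limma and 3 at an unadjusted p under 0.05, against the same 10.8% of all genes. Myl2, the slow and ventricular regulatory light chain, was at 9.70 to 46.2 FPKM in AngII+VAL and 0 to 6.24 in AngII. Atp2a2, a calcium pump that slow fibres and heart use among others, was at 49.1 to 146 FPKM in AngII+VAL. In AngII it reached 545 FPKM, in AngII 2, the library with heart muscle genes. The 6 other slow fibre genes with values summed to 689 FPKM there and to 73.4 to 113 in the other AngII libraries. Of 14 genes of muscle development and the immature end plate, 0 had values in all groups, and 4 were listed for some group (Chrna1, Myf6, Myod1 and Rapsn).

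The genes outside the list whose level followed the fast members most closely were ranked by Pearson's r over the 30 libraries, among 13187 genes. The first 10 were Smtnl1 (0.962), Rpl3l (0.955), Ppp1r27 (0.921), Ankrd2 (0.917), Sypl2 (0.911), Klhl41 (0.908), Ckmt2 (0.907), Fitm1 (0.905), Cavin4 (0.894) and Apobec2 (0.886). Smtnl1 was at 2.94 to 18.2 FPKM in AngII+VAL, at 0 to 0.240 in AngII and at 0.0585 to 23.2 in Control. Ckmt2, the mitochondrial creatine kinase of muscle, was at 27.5 to 196, 0.309 to 86.4 and 0.736 to 239 FPKM. Of the 50 genes at the top of this order, 16 belonged to the 49 other skeletal muscle genes and 2 to the other slow fibre genes.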

How the data were processed

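Total RNA of mouse abdominal aorta was sequenced after ribosomal RNA depletion, with a NEBNext kit, per the labels' protocols, so values of overlapping and antisense genes are uncertain. The authors deposited FPKM values per transcript, a unit read from the values alone. Build mm10 and limma come from the submitters' processing notes, and the aligner and quantifier are not given in the sources used here. Of 33677 Ensembl transcripts, 33638 matched GENCODE M21, and transcripts on every group's list gave sums for 14379 genes. Myosin, actin and troponin genes are close relatives, and the division of reads between them rests on the quantifier. Reads per library were recovered from the steps of low values, of which 98.92% to 99.72% came within 0.1 read of a whole number, and floors hold for counting error only. The 13223 genes that reached 1 FPKM in 5 or more libraries were fitted as log2(FPKM + 1), a pseudocount of 1 that understates the change of low genes, with limma 3.58.1 in R 4.3.3 (trend and robust, 1 mean per group, 24 residual degrees of freedom). Tests were two-sided, adjusted by Benjamini-Hochberg over all genes tested, with a threshold of 0.05, and the script was tested on simulated data. All members were named, with the 10 genes nearest to the fast members. Members and gene lists were chosen with earlier results of these data known. Tables and plots used Python 3.11.15, pandas 2.3.3 and matplotlib 3.10.9.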

Additional observations from a re-analysis of the deposited data

Results flagged for a closer look

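In each group of 5 libraries the highest and lowest value of each member, and of the means of the fast and the slow members, were set against the nearest other library, and 23 of 180 group values stood apart with a gap over 0.71 of the group's range. A chance rate of about 1 in 20 holds for independent, normally spread values. The members share their libraries, and the means are made of members, so the tally is a description without a chance rate. For Myh2 in AngII+ETH and Myh4 in AngII+GAS all other libraries of the group were listed at 0. All values are in log2(FPKM + 1), and the stated library was the highest of its group each time.

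AngII+ETH 1 stood apart in 9 values. They were Myh2 (4.37), Myh4 (6.04), Actn3 (4.70), Pvalb (5.99), Mybpc2 (4.31), Cacna1s (2.46), Xirp2 (2.73) and Trim63 (3.41), and the mean of the fast members (5.76, with 2.27 in the nearest library). The mean of the slow members did not stand apart in that library.

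AngII 2 stood apart in 8 values. They were Myh7 (4.51), Tnnc1 (6.68), Actn2 (5.77), Eno3 (5.92), Pygm (5.51), Pgam2 (5.89) and Trim63 (2.20), and the mean of the slow members (4.56, with 0.844 in the nearest library). This is the library with 1590 FPKM of heart muscle genes.

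AngII+BAI 3 stood apart in Cacna1s (3.80) and Trim63 (4.64), and AngII 3 in Myot (0.885). In AngII+GAS, replicate 3 stood apart in Myh4 (3.86), replicate 1 in Xirp2 (2.46) and replicate 5 in Asb2 (4.79). No library of Control or AngII+VAL stood apart by this measure. In Control, libraries 1 and 2 were high together.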

How the results depend on the processing

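The counts of members called and the medians were recomputed under 9 other settings of the fit and without single libraries or the pairs named here. Of 411 values 386 kept a count within 1.5 times or a median within the spread between libraries (1 SD, 1.44 in log2(FPKM + 1)). Only the medians of AngII+VAL were larger than that spread, and only AngII+BAI against Control had a count above 0 at first. The tally therefore cannot show that a median was stable. Medians near 0 changed sign within the spread of 1 SD, as given above for the plant compounds against Control. Against AngII, AngII+VAL had 12 members called with the 2 groups alone and 1 (Cacna1s) with unlisted transcripts as 0. The test over all groups called 1 member with array weights and 11 without Control 1, Control 2 and AngII+ETH 1, and that setting also called 14 for AngII+VAL against Control. Those libraries are high in most members, so leaving them out lowers Control and AngII+ETH in the same genes. The 11 and 14 calls are therefore a description only. Calls among all genes are given only for the 2 groups alone, above, so the other counts say nothing of the list. The 1 call of AngII+BAI against Control fell to 0 with array weights, with the 2 groups alone, without Control 1 and 2, without those and AngII+ETH 1, and without AngII+BAI 3 and 5 (an alternative added after seeing the data), and ranged from 0 to 1 without single libraries. Without Control 1 and 2 the medians against Control moved to 0.157 for AngII, 1.01 for AngII+ETH, 1.80 for AngII+BAI, 0.595 for AngII+GAS and 3.67 for AngII+VAL. Those of AngII, AngII+BAI, AngII+GAS and AngII+VAL were the same when AngII+ETH 1 was left out as well. Tnnc2 and Mb in AngII against Control reversed to 0.155 and 0.708 under both settings. Without Control 1, Control 2 and AngII 2 (added after seeing the data), Tnnc2 and Acta1 reversed to 0.316 and 0.201. Settings without libraries differ only in the libraries that enter, and for the other settings the cause was not tested.

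Depth was similar in all libraries and limits only members near 0, such as Cacna1s in AngII. The values of 0 for Myh2 in AngII hold for its shared transcript. No paired analysis was possible because the labels give no replicate numbers or pairing.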
